A study of Mus musculus with 6 samples.

Results

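The cytosolic ribosomal protein genes, which encode the protein parts of the ribosome that translates nuclear-encoded mRNA, were described in the kidney of newborn mice. They were chosen by symbol: Rps or Rpl followed by a digit, with Rpsa, Rplp0, Rplp1 and Rplp2 added, and without the Rps6k kinases, Rps19bp1, Rpl7l1 and pseudogenes whose symbols end in -ps. Of 93 symbols that fit, 86 were on the array, among 32451 genes or unnamed accessions in all, and were read by 176 probes. By symbol alone, these were 34 genes of the small subunit (40S) and 52 of the large subunit (60S). A symbol does not show that the product is a subunit protein, and 6 of the 93 are annotated as pseudogenes. The other 7 symbols had no probe matched here. Of the 86 genes, 83 entered the test, 34 of the 40S and 49 of the 60S subunit, and each of these 83 was well above background on all 6 arrays and saturated on none. The remaining 3, Rpl3l, Rpl10l and Rpl39l, were too dim to be tested.

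The study compared neonates labelled USP10 KO with neonates labelled USP10 WT, 3 of each, with tissue taken about 6 hours after birth. RNA of each neonate's kidney was labelled with Cy3 and hybridised to a single-colour Agilent mouse expression array, 1 neonate per array. All 6 are labelled male. The labels give neither the strain nor the knockout allele, nor whether Usp10 was lost in all cells.

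A ribosome joins a small subunit, which binds mRNA and reads its codons, to a large subunit, which forms peptide bonds. Each subunit needs its set of proteins in fixed proportion, and in most mammalian cells their mRNAs are abundant and begin with a terminal oligopyrimidine (TOP) tract, a cytosine followed by a run of pyrimidines, through which mTOR signalling and Larp1 control their translation. USP10 is a deubiquitinating enzyme that binds G3bp1 and removes ubiquitin from 40S proteins, among them Rps2, Rps3 and Rps10, which spares the subunit from degradation. The arrays measured mRNA, so they read neither ubiquitin marks nor the amount of ribosomal protein.

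The TOP tract is the sequence feature that these mRNAs are known to share. In RefSeq's GRCm38.p6 promoter table, 62 of the 83 tested genes had an entry, and 14 of the 62 (22.6%) had C at the annotated first base followed by at least 4 bases that were all C or T, read on the gene's own strand. The same pattern stood at the start of 3.01% of 27025 genes in the table. A tract that begins a few bases away from the annotated start is not counted, and no match says only that these letters are not at that base. The windows below, from 10 bases before the annotated start to 20 bases from it onward, show members whose values are given later. Capitals mark the pyrimidine run that begins at the annotated first base. Rps6 (chr4:86857348-86857377, minus strand), Rps10 (chr17:27635225-27635254, minus strand), Rpl35 (chr2:39005112-39005141, minus strand), Rplp2 (chr7:141447641-141447670, plus strand) and Rpl15 (chr14:18270967-18270996, minus strand) had the run. Rps15 (chr10:80292421-80292450, plus strand) and Rpl23 (chr11:97782420-97782449, minus strand) are shown because they had the smallest p of their subunit in the genotype comparison, and neither had the run at the annotated base.
Rps6: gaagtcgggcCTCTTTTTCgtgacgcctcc
Rps10: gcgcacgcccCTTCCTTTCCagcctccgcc
Rpl35: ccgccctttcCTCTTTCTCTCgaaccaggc
Rplp2: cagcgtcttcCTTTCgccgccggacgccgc
Rpl15: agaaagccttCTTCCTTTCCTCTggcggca
Rps15: cagagctcgcgataactgcgcaagcgcagc
Rpl23: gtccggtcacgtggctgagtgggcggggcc

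Levels are given as log2 of the processed intensity minus the 75th percentile of the array, and differences as the mean of the arrays labelled KO minus the mean of the arrays labelled WT on that scale. Levels of different genes come from different probes and are not compared. Between 64.4% and 73.9% of each array's 43020 non-control spots exceeded background clearly, by the flag in the files. By the scan date in the file headers, KO replicates 1 and 2 and WT replicates 2 and 3 formed scan 1, and KO replicate 3 and WT replicate 1 formed scan 2. KO replicate 2 stood apart, with 39.1% of the summed signal in its brightest 1% of spots against 29.4% to 31.9% on the other arrays. The Usp10 probe read 3.64, 3.37 and 3.56 on the arrays labelled KO and 3.01, 3.13 and 2.95 on those labelled WT. The signal was thus higher under the KO label, by 0.49 ± 0.16 (SE), short of limma's threshold (adjusted p = 0.416). A probe outside the deleted part would check nothing, and which part was deleted is not given here, so groups are named by their labels throughout. The Y-linked Eif2s3y read -8.11 on WT replicate 2, not well above background, and 1.14 to 2.65 on the other 5 arrays. A probe for Xist read -0.62 on WT replicate 1 and 0.43 on WT replicate 2, and was not well above background on the other 4. Both go against the label male, so values against WT replicate 3 alone are also given.

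None of the 83 ribosomal protein genes differed between the labelled genotypes after adjustment. In limma's test, with Benjamini-Hochberg adjustment over 21219 genes, 0 of 83 passed an adjusted p of 0.05, while 17 of all genes (0.0801%) did. The lowest adjusted p among the 83 was 0.459. At an unadjusted p under 0.05, no member was higher on the arrays labelled KO, where 6.15% of all genes were, and 1 member, Rps15, was lower, where 4.23% of all genes were. With scan as a block, 62 genes (0.292%) passed the adjusted threshold and again 0 of 83 members, with a lowest adjusted p of 0.238. In that fit 3 members, Rpsa, Rps27l and Rpl23, were higher at an unadjusted p under 0.05, against 10.5% of all genes, and Rps15 was lower, against 7.24%.

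Most members lay slightly above 0. The median log2 difference was 0.13 over the 34 40S genes and 0.11 over the 49 60S genes, beside 0.028 over all genes tested. In all, 58 members had a positive difference and 25 a negative one, beside 11301 and 9918 of the 21219 genes tested. The range over the members ran from -0.43 to 0.57. The standard error of a single difference had a median of 0.19, and for 74 members the 95% interval lay within 1 on the log2 scale in either direction. Differences smaller than these intervals were not detectable with 3 arrays per group.

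**Figure D1:**
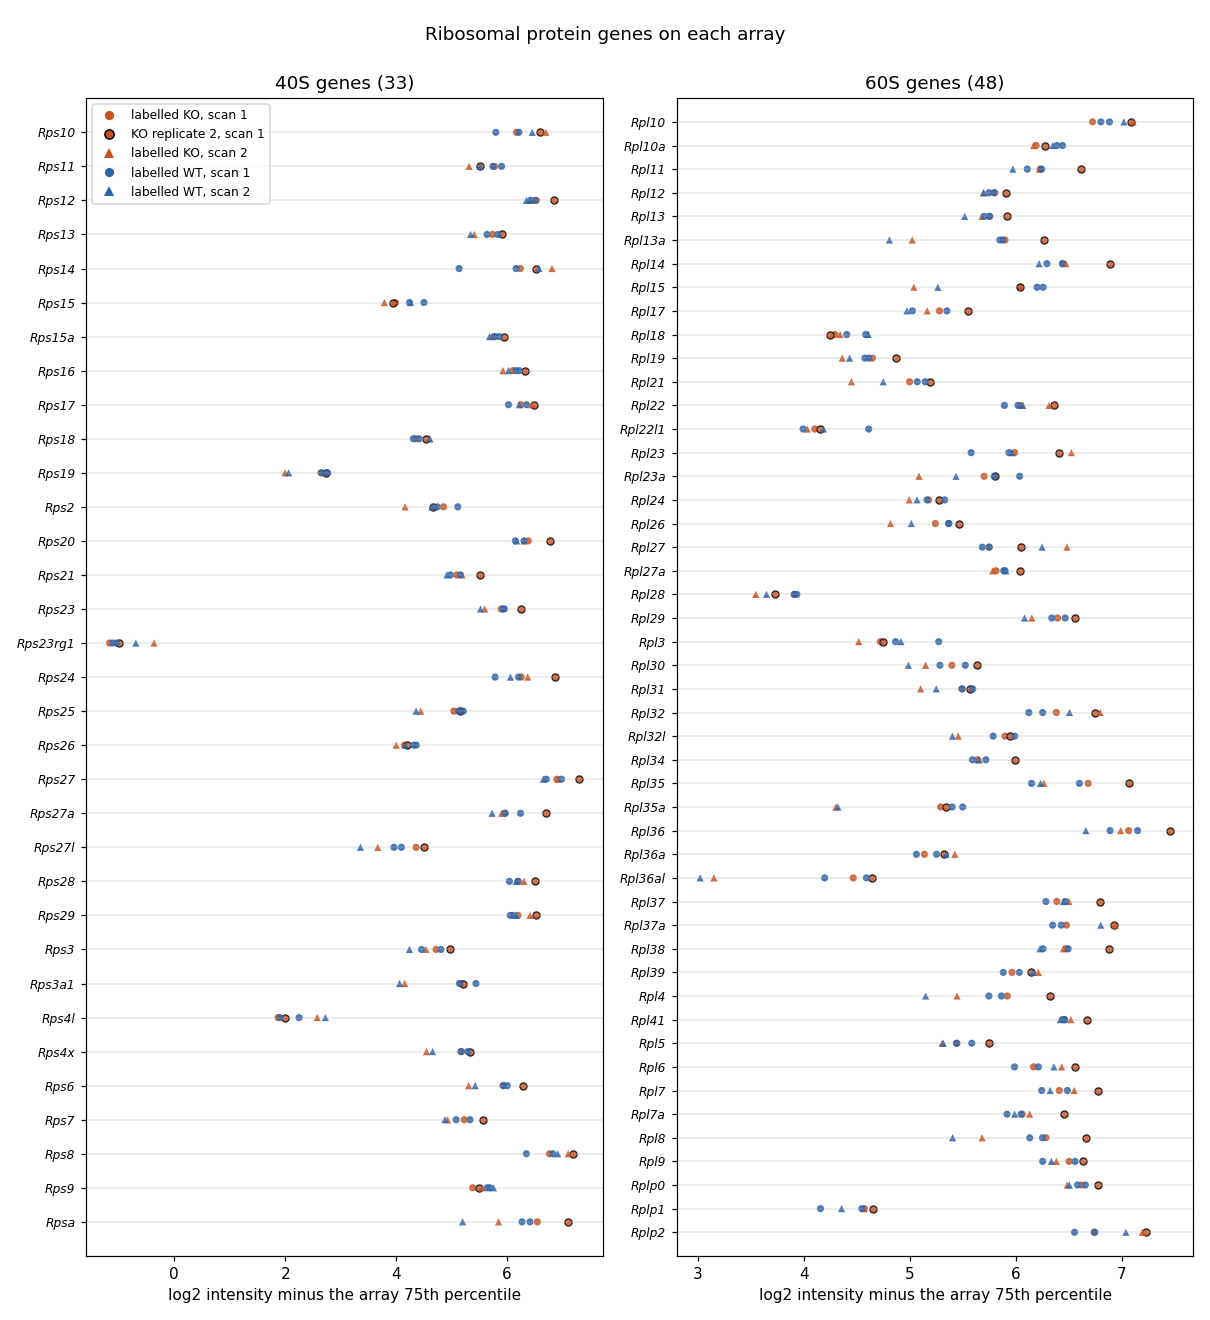
Level of tested ribosomal protein genes on each array, with log2 intensity minus the array's 75th percentile on the horizontal axis, 33 of 34 genes of the 40S subunit on the left and 48 of 49 of the 60S subunit on the right. Orange marks arrays labelled KO and blue those labelled WT, circles scan 1 and triangles scan 2, and a black outline KO replicate 2. That array was the highest for 51 of the 83 tested genes, and the share of all genes was not counted.

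The sign of this small shift depended on the scaling, and its size on single arrays. Quantile normalisation gave medians of -0.074 for the 40S and -0.095 for the 60S genes, with 25 members positive and 58 negative, beside a median of -0.022 for all genes. Quantile normalisation after normexp background correction gave -0.085 and -0.087. Scaling on the array median kept the medians positive, at 0.095 and 0.079. Normexp with the 75th percentile gave 0.082 and 0.027, both below the 0.14 of all genes on that scale. The 60S median was 0.040 when probes were averaged per gene and 0.046 over every probe. Without KO replicate 2 they were 0.0090 and 0.013, beside 0.00018 for all genes. They moved by over 1.5 times upward without KO replicate 3, to 0.22 and 0.18, and the 40S median also without WT replicate 2, to 0.20, while the 60S median was 0.053 without WT replicate 1. KO replicate 2 lay above both other arrays labelled KO for 64 of the 83 members, against 40% of all genes. Within scan 1 the medians were 0.16 and 0.11, within scan 2 they were 0.087 and 0.068, and against WT replicate 3 alone 0.20 and 0.10.

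**Figure D2:**
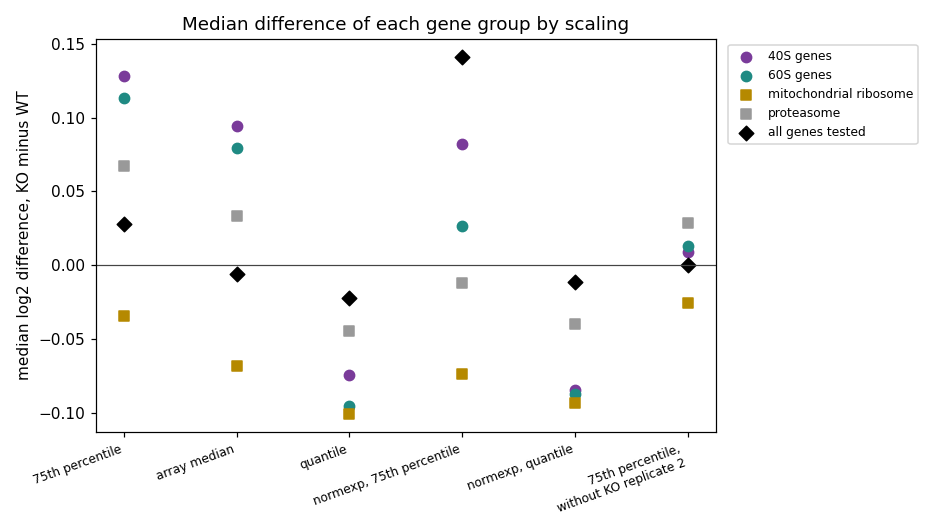
Median log2 difference, arrays labelled KO minus arrays labelled WT, on the vertical axis for each way of scaling the arrays on the horizontal axis, each point being 1 gene group. The 40S and 60S medians are 0.13 and 0.11 with the 75th percentile, -0.074 and -0.095 with quantile normalisation, and 0.0090 and 0.013 without KO replicate 2.

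The share of each array's summed signal read by the 176 member probes scales each array by its own total, in which bright spots weigh most. It was 7.41%, 7.52% and 7.40% on KO replicates 1 to 3 and 7.58%, 7.58% and 7.61% on WT replicates 1 to 3. All 3 shares under the KO label were below all 3 under the WT label, which is the opposite direction to the medians on the 75th percentile scale. The smallest two-sided exact permutation p that 3 arrays against 3 allow is 0.1. The bright spots of KO replicate 2 enter the denominator of its share, and the part of this in the difference was not tested.

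Among the 40S genes, those whose proteins carry the ubiquitin marks of stalled or collided ribosomes came first by role. Rps2 and Rps3 lie near the channel through which mRNA enters and are marked by Rnf10, and Rps10 and Rps20 lie in the head of the subunit and are marked by Znf598. Rps2 read 4.85, 4.67 and 4.16 on KO replicates 1 to 3 and 4.64, 4.74 and 5.11 on WT replicates 1 to 3, a difference of -0.27. Rps3 read 4.72, 4.97 and 4.53 under the KO label and 4.24, 4.81 and 4.46 under WT, a difference of 0.24. In both genes the groups overlapped, and a dimmer probe of each gave -0.0078 for Rps2 and -0.058 for Rps3. For Rps10 the values were 6.17, 6.58 and 6.70 against 6.45, 6.21 and 5.80, a difference of 0.33, again with overlap. Rps20 read 6.38, 6.77 and 6.30 against 6.17, 6.30 and 6.15, a difference of 0.28, and here all 3 arrays labelled KO lay above all 3 labelled WT. KO replicate 3 and WT replicate 2 nearly touched, and the difference was 0.13 without KO replicate 2. None of these 4 passed limma's test, with adjusted p-values from 0.582 to 0.675. On the brightest probe of each gene 3 of the 4 differences were positive, and for Rps3 the sign turned on the dimmer probe.

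Rps15, a protein of the 40S head that lies near the decoding centre, had the lowest p of all members. It read 3.99, 3.94 and 3.79 on the arrays labelled KO and 4.26, 4.24 and 4.50 on those labelled WT. All 3 values under the KO label were lower, and the gap between the groups was larger than the spread of the arrays labelled KO. The difference was -0.43 ± 0.16 (SE), a fold of 0.743 with a 95% interval of 0.570 to 0.969 (limma, adjusted p = 0.459). It was -0.41 within scan 1, -0.47 within scan 2, -0.60 against WT replicate 3 alone and -0.56 after quantile normalisation. A dimmer probe for the same gene gave -0.30.

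The 40S genes with the largest positive differences, Rps14 and Rpsa, also had standard errors above the median. Rps14, a protein of the platform whose loss contributes to the anaemia of a myelodysplastic syndrome, read 6.24, 6.53 and 6.81 on the arrays labelled KO and 6.57, 6.16 and 5.13 on those labelled WT. Its difference of 0.57 ± 0.37 (SE) rested on WT replicate 3, which was the lowest array by over 1, and was 0.16 without it. Rpsa, also known as the laminin receptor and mutated in isolated congenital asplenia, read 6.54, 7.09 and 5.85 against 5.20, 6.41 and 6.27, a difference of 0.54 ± 0.41 (SE). Its lowest array in each group belonged to scan 2, and the groups overlapped. Another 3 probes of Rpsa gave -0.14, 0.03 and 0.06. Rps24, a gene mutated in Diamond-Blackfan anaemia, read 6.25, 6.86 and 6.37 against 6.06, 6.20 and 5.78, a difference of 0.48 ± 0.22 (SE) with all 3 arrays labelled KO higher (limma, adjusted p = 0.486). Rps29, another gene of that disease, read 6.19, 6.53 and 6.41 against 6.16, 6.11 and 6.06, without overlap, a difference of 0.27. KO replicate 1 and WT replicate 1 nearly touched, and the other probes of Rps29 gave 0.13 and -0.059.

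**Figure D3:**
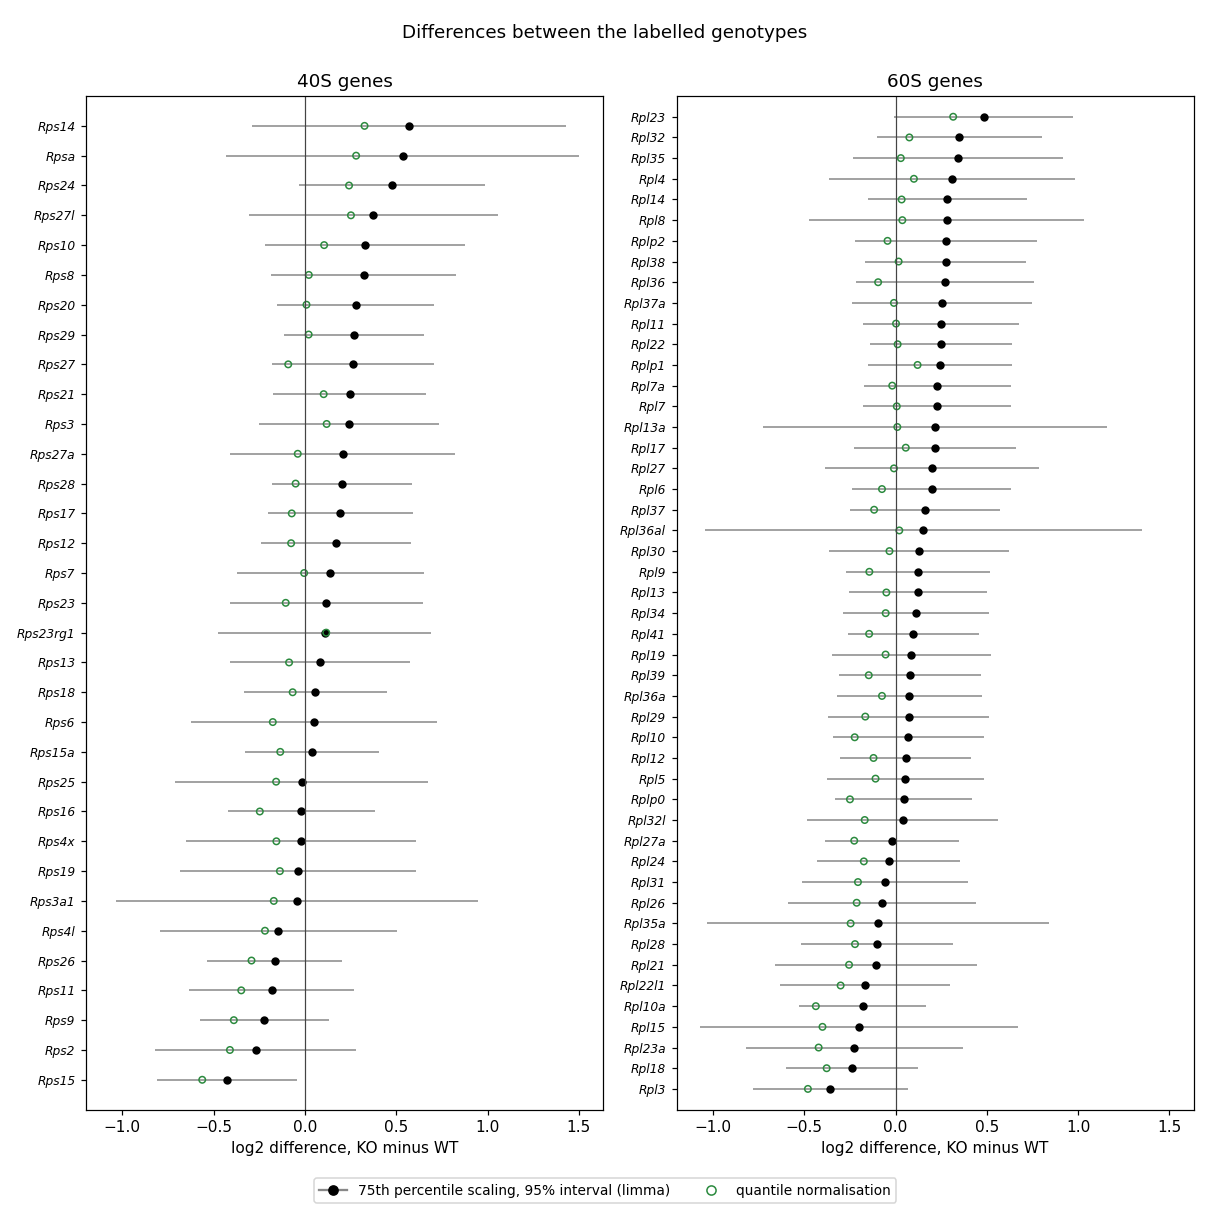
Log2 difference of tested genes, arrays labelled KO minus arrays labelled WT, 33 of 34 40S genes on the left and 48 of 49 60S genes on the right, ordered by size. Filled points with lines are the differences on the 75th percentile scale with limma's 95% interval, which excludes 0 for Rps15 alone, and open green points are the differences after quantile normalisation, which are negative for 58 of all 83 tested genes.

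Among the 60S genes, Rpl23, a protein of the face that meets the small subunit and a binding site of the anti-association factor Eif6, had the lowest p. It read 5.99, 6.41 and 6.53 on the arrays labelled KO and 5.96, 5.94 and 5.58 on those labelled WT. All 3 values under the KO label were higher, though KO replicate 1 and WT replicate 1 nearly touched. The difference was 0.48 ± 0.21 (SE), a fold of 1.40 (limma, adjusted p = 0.482). The other probes of the gene gave lower values, and 1 of them was negative at -0.080. Rpl32 read 6.38, 6.75 and 6.80 against 6.51, 6.25 and 6.12, a difference of 0.35 with overlap. Rpl14 read 6.44, 6.89 and 6.47 against 6.22, 6.44 and 6.29, a difference of 0.28 in which KO replicate 1 and WT replicate 2 nearly touched, and its other probe gave -0.22.

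Rpl3 and Rpl18 had some of the most negative differences of the large subunit. Rpl3, which reaches towards the peptidyl transferase centre, read 4.72, 4.75 and 4.52 on the arrays labelled KO and 4.92, 4.87 and 5.27 on those labelled WT, a difference of -0.36 ± 0.18 (SE). Rpl18, a gene linked to Diamond-Blackfan anaemia, read 4.29, 4.24 and 4.34 against 4.61, 4.40 and 4.58, a difference of -0.24 ± 0.15 (SE). In both genes all arrays labelled KO lay below all labelled WT, and the difference was negative within both scans and in every alternative tried. Their adjusted p-values in limma's test were 0.518 and 0.574.

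The stalk that recruits elongation factors to the 60S subunit is built from Rplp0, Rplp1 and Rplp2 on a base that includes Rpl12. Rplp1 read 4.57, 4.65 and 4.57 on the arrays labelled KO and 4.36, 4.55 and 4.16 on those labelled WT, without overlap, a difference of 0.24. Rplp2 read 6.74, 7.23 and 7.20 against 7.04, 6.75 and 6.56, a difference of 0.27 with overlap. Both differences were smaller after quantile normalisation, at 0.12 and -0.044, the second with its sign turned. Rplp0 read 6.62, 6.78 and 6.49 against 6.51, 6.58 and 6.66, a difference of 0.045. Rpl12 read 5.80, 5.91 and 5.70 against 5.70, 5.80 and 5.75, a difference of 0.056. Differences of that size were within the spread of the replicates, and both turned negative after quantile normalisation, at -0.25 and -0.12. The dimmer probes of Rplp0 gave -0.0062 and 0.41, and that of Rpl12 gave -0.17. The Rplp0 probe at 0.41 read 5.97, 6.23 and 6.15 against 5.66, 5.81 and 5.65, without overlap (limma over every probe, adjusted p = 0.477).

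Rpl5 and Rpl11 join the 5S RNA in a particle that, when ribosome assembly fails, binds Mdm2 and so stabilises p53. Rpl5 read 5.45, 5.75 and 5.31 on the arrays labelled KO and 5.32, 5.44 and 5.59 on those labelled WT, a difference of 0.053. Rpl11 read 6.23, 6.62 and 6.22 against 5.97, 6.25 and 6.11, a difference of 0.25, which was 0.12 without KO replicate 2. Groups overlapped in both genes. The particle forms from proteins and RNA, so these mRNA levels do not measure it.

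Other roles showed the same spread around a small value. The 7 genes whose proteins line or ring the exit of the nascent peptide tunnel had a median difference of 0.081, with 4 positive and 3 negative. The 19 listed genes of Diamond-Blackfan anaemia, a failure of red cell formation caused by loss of 1 copy of a ribosomal protein gene, had a median of 0.14, with 12 positive and 7 negative. Both medians turned negative without KO replicate 2, at -0.036 and -0.021, and with quantile normalisation, at -0.15 and -0.091. Rpl35, a protein of the tunnel exit and a gene of that disease, read 6.68, 7.07 and 6.27 on the arrays labelled KO and 6.23, 6.60 and 6.15 on those labelled WT, a difference of 0.34 with overlap, and of 0.15 without KO replicate 2. Rps19, the gene most often mutated in that disease, read 2.64, 2.74 and 2.00 against 2.06, 2.66 and 2.76, a difference of -0.036. Rps6, whose protein is phosphorylated by the S6 kinases, read 5.92, 6.28 and 5.30 against 5.42, 5.93 and 6.00, a difference of 0.049, and of -0.17 without KO replicate 2. In Rps19 and Rps6 alike, each group had 1 low array, and those were the arrays of scan 2. The 14 genes with a TOP run at the annotated start had a median difference of 0.15 and the 48 without it 0.092.

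Paralogues replace or accompany a core ribosomal protein in some tissues. Rps27l, a paralogue of Rps27 that is also a p53 target, read 4.36, 4.51 and 3.67 on the arrays labelled KO and 3.36, 4.09 and 3.96 on those labelled WT, a difference of 0.37. The groups overlapped across scans, but within each scan the arrays labelled KO were higher, by 0.41 in scan 1 and 0.31 in scan 2, and with scan as a block limma gave an adjusted p of 0.257. Rpl22l1, the paralogue of Rpl22, read 4.10, 4.15 and 4.03 against 4.19, 4.61 and 3.99, a difference of -0.17 that rested on WT replicate 2 and was 0.0068 without it. Rpl36al read 4.47, 4.65 and 3.15 against 3.02, 4.59 and 4.20, a difference of 0.15 with a standard error of 0.51. Rps4l, matched here to a transcript annotated as non-coding, read 1.87, 2.00 and 2.58 against 2.72, 2.25 and 1.91, a difference of -0.14. The last 2 genes divided by scan rather than by label, in opposite directions. Rpl3l, a paralogue of striated muscle, was well above background on 1 of the 6 arrays, and Rpl10l, a paralogue of the testis, and Rpl39l on none.

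The 4 tested members on the X chromosome, Rps4x, Rpl10, Rpl36a and Rpl39, differed by -0.023, 0.071, 0.076 and 0.081, and none passed the test. Rps4x read 5.18, 5.32 and 4.55 on the arrays labelled KO and 4.66, 5.17 and 5.29 on those labelled WT. WT replicates 1 and 2, which carried Xist signal, lay within the range of the other arrays for this gene.

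In all, 8 members (9.64%) had every array labelled KO above every array labelled WT, where 10.1% of all genes did, and 6 members (7.23%) had the reverse, where 8.1% of all genes did. Both shares were near those of all genes. Among the 8 were Rpl23, Rps24, Rpl14, Rps20, Rps29, Rplp1 and Rpl7a, and among the 6 Rps15, Rpl3, Rpl18, Rps9 and Rpl10a. Rpl7a read 6.06, 6.45 and 6.13 against 5.99, 6.05 and 5.92. Rps9, a protein of the mRNA entry side, read 5.38, 5.49 and 5.55 against 5.75, 5.69 and 5.64. The sign of the difference was the same in both scans for 72 of 83 members, and the same in every alternative tried for 30. Neither count was made over all genes, so neither sets the members apart.

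A division by scan was larger than that by label for many of these genes. Both arrays of scan 2 lay below all 4 arrays of scan 1 for 36 of 83 members (43.4%), where 19.4% of all genes did, and above them for 7 members (8.43%), where 15.5% of all genes did. The median difference, scan 2 minus scan 1, was -0.18 over the 40S and -0.17 over the 60S genes, beside 0.0034 over all genes. The difference between scans exceeded that between labels in size for 54 of the 83, and the share of all genes was not counted. In size the scan difference had a median of 0.23 over the members and 0.26 over all genes. That between labels had medians of 0.19 and 0.22. No test is given for scans, which are not a group of the design, and what else differed between the scans is not stated in the labels or headers. The share of non-control spots clearly above background was 64.4% and 66.5% on the scan 2 arrays and 69.7% to 73.9% on scan 1. The part of this in the division was not tested.

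On the brightest probes, the division was among the largest in Rpl35a, Rps3a1, Rpl13a, Rpl15 and Rpl8. Their dimmer probes gave scan differences of smaller size, at -0.68 for Rpl35a, -0.58 for Rps3a1 and -0.76 for Rpl8. Those of Rpl13a gave -0.39 and -0.24, and that of Rpl15 gave 0.14. Rpl35a, a Diamond-Blackfan anaemia gene, read 4.30 and 4.32 on KO replicate 3 and WT replicate 1 and 5.29 to 5.50 on the arrays of scan 1. Rps3a1 read 4.15 and 4.06 on the scan 2 arrays and 5.14 to 5.44 on scan 1. Rpl13a, part of the complex that silences inflammatory mRNAs in macrophages, read 5.02 and 4.81 against 5.85 to 6.26. For each of these the arrays within a scan lay close together whatever their label, so their differences between labels, -0.094, -0.041 and 0.22, had standard errors of 0.40 to 0.42. Rpl15 read 5.04 and 5.27 on scan 2 and 6.04 to 6.26 on scan 1, and Rpl8 read 5.68 and 5.40 against 6.13 to 6.66. Rps14 and Rpl27 went the other way, with both scan 2 arrays above all 4 of scan 1, Rpl27 at 6.48 and 6.25 against 5.69 to 6.05.

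**Figure D4:**
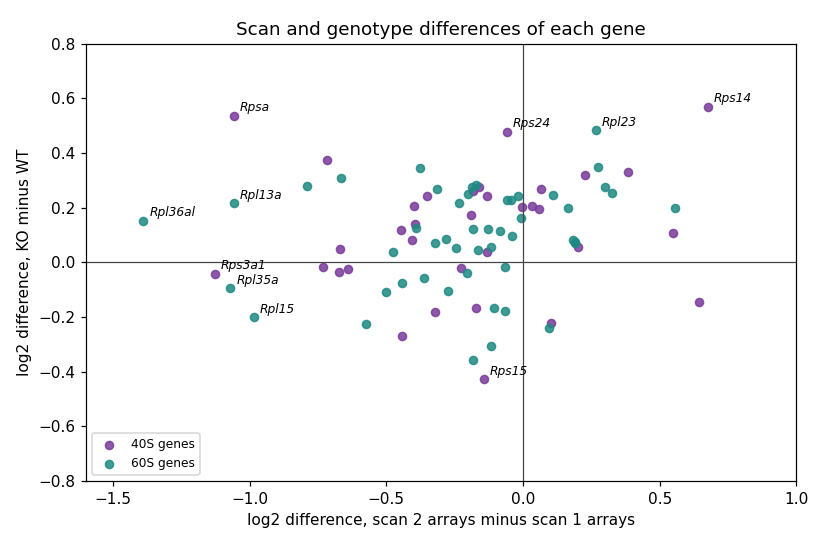
Each point is 1 tested gene, with its log2 difference of scan 2 arrays minus scan 1 arrays on the horizontal axis and of arrays labelled KO minus arrays labelled WT on the vertical axis, 40S genes in purple and 60S genes in green. The scan difference reaches -1.39 for Rpl36al and passes -1 for 5 genes, while every difference between labels lies between -0.43 and 0.57.

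Probes for the same gene often gave different answers. Of 51 members with at least 2 tested probes, 25 had probes of 1 sign in the comparison of labels and 26 had both signs, and the median span between probes was 0.25, beside a median absolute difference of 0.19 over the members. For Rpl13a the brightest probe gave 0.22, while dimmer probes gave -0.74 and -0.75. On the lowest of these the values were 2.52, 2.10 and 2.06 under the KO label and 2.81, 2.90 and 3.22 under WT, without overlap (limma over every probe, adjusted p = 0.363). Tested singly, 1 of 170 member probes was higher at an unadjusted p under 0.05, against 5.85% of all probes, and 6 were lower, against 4.36%. The 6 belonged to Rpl13a, which had 2, Rpl15, Rpl21, Rpl22 and Rps15, and the higher probe to Rplp0.

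Probes of the same gene also differed in the division by scan. The median span of the scan difference between probes of a gene was 0.51, and it exceeded 1 for 9 genes. Rps24 had probes at -0.06, -0.26 and -2.44 for scan 2 minus scan 1, and the last of these read 3.45 and 3.35 on the scan 2 arrays and 5.68 to 6.15 on scan 1. Rpl17, a protein at the tunnel exit read by 7 probes, ranged from -2.01 to -0.014. Rpl24 had probes at -0.20 and -1.55. Most of these genes have processed pseudogenes, and which other transcripts a probe binds was not tested.

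**Figure D5:**
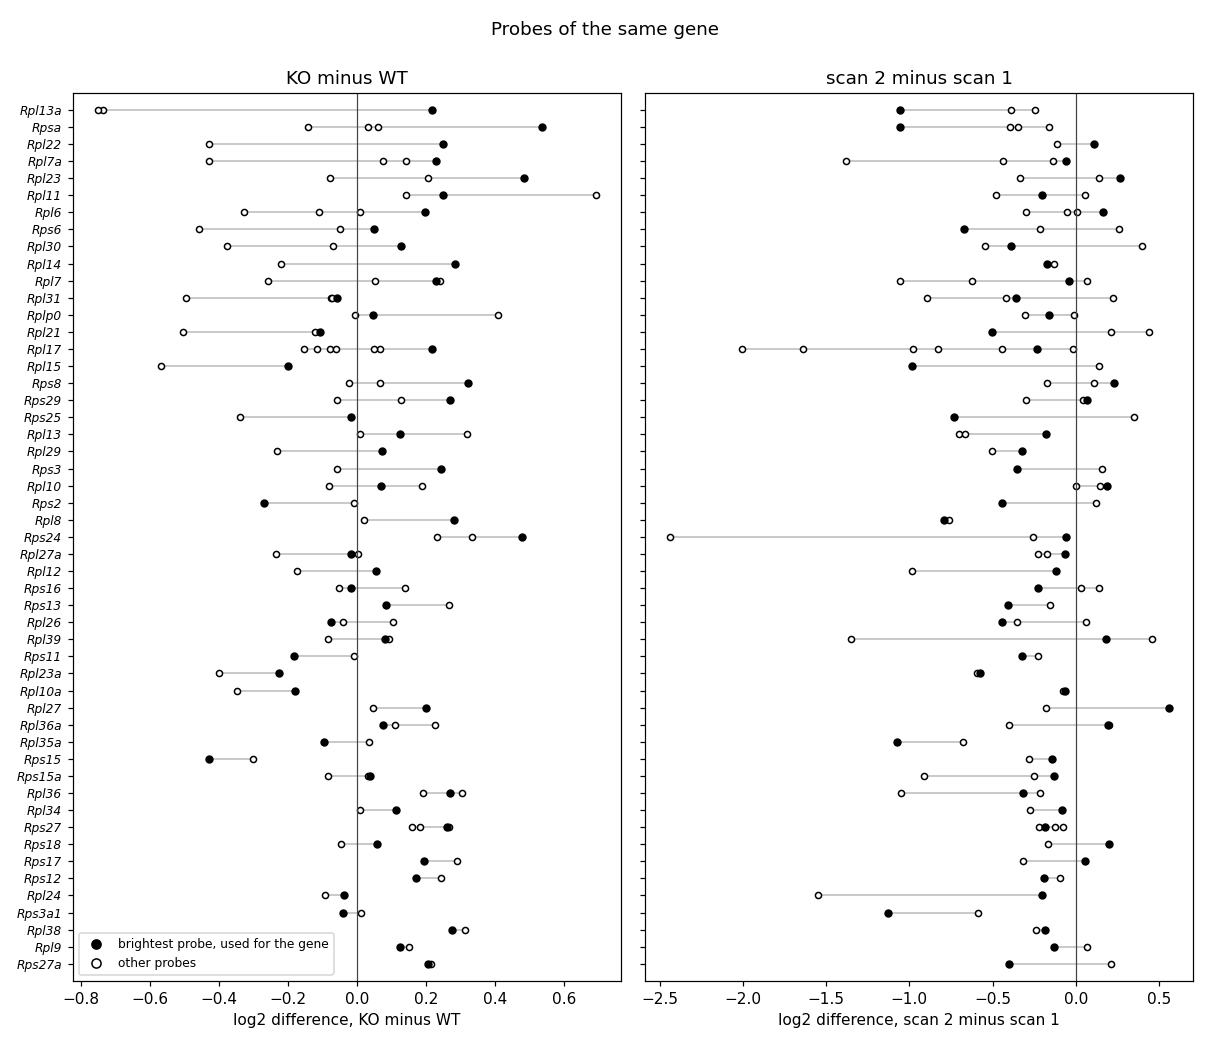
Differences by probe for the 51 genes with at least 2 tested probes, arrays labelled KO minus arrays labelled WT on the left and scan 2 minus scan 1 on the right, both in log2 units on the horizontal axis. Filled points are the brightest probe, which stands for the gene, and open points the others; they span up to 0.97 for Rpl13a on the left and reach -2.44 for Rps24 on the right.

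Genes that make, guard or regulate ribosomes were listed by role. Rack1, a signalling scaffold on the 40S head, and Fau, a fusion that yields a 40S protein, fall outside the symbol rule and differed by 0.29 and 0.10. The 17 other genes known for TOP mRNAs, mainly translation factors, had a median of -0.075, with 8 positive and 9 negative. The lowest p among them belonged to the initiation factor subunit Eif3f, at 1.95 ± 0.15 (SD, n = 3) under the KO label and 2.39 ± 0.29 (SD, n = 3) under WT. The 21 regulators of TOP mRNAs had a median of 0.16, and of 0.080 without KO replicate 2. Tsc1, part of the complex that restrains mTOR, read 2.79 ± 0.21 (SD, n = 3) against 2.04 ± 0.42 (SD, n = 3), a difference of 0.74 (limma, adjusted p = 0.423). None of these genes passed the adjusted test.

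The 21 genes of ribosome quality control had a median of -0.13, with 2 higher, Otud3 and Usp10, and 2 lower, Caprin1 and Usp21, at an unadjusted p under 0.05 and none after adjustment. Over all genes 6.15% were higher and 4.23% lower at that p. Otud3 and Usp21 encode deubiquitinases that act on 40S proteins, and they differed by 0.54 and -0.41. Caprin1, a partner of G3bp1 in stress granules, differed by -0.65. The 18 chaperones and importers of new ribosomal proteins had a median of -0.17, with 14 of 18 negative. Grwd1, the chaperone of Rpl3, read -1.52 ± 0.10 (SD, n = 3) under the KO label and -0.78 ± 0.30 (SD, n = 3) under WT, a difference of -0.74 (limma, adjusted p = 0.350).

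The 11 tested genes of the p53 response had a median of 0.39, with 9 positive, 4 of them at an unadjusted p under 0.05, where 6.15% of all genes were, and 0 after adjustment. Zmat3, an RNA-binding p53 target, read 1.29 ± 0.04 (SD, n = 3) under the KO label and -0.08 ± 0.21 (SD, n = 3) under WT, a difference of 1.36 (limma, adjusted p = 0.052). Trp53inp1, an autophagy and cell death regulator, differed by 1.58 (adjusted p = 0.087). Cdkn1a, the inhibitor of cyclin-dependent kinases, differed by 1.30 (adjusted p = 0.087). With scan as a block, Zmat3 and Trp53inp1 passed, at adjusted p-values of 0.037 and 0.045, and no other gene of the lists above did. All 3 differences exceeded the largest among the ribosomal protein genes, 0.57 in Rps14.

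The 77 tested mitochondrial ribosomal proteins and the 32 constitutive proteasome subunits, which also form large complexes of fixed proportion, had medians of -0.034 and 0.067. No member of either passed after adjustment, and at an unadjusted p under 0.05 there were 0 higher and 3 lower in the first and 0 higher and 1 lower in the second, where 6.15% of all genes were higher and 4.23% lower. The proteasome median was 0.028 without KO replicate 2 and -0.045 with quantile normalisation. Both arrays of scan 2 lay below all 4 of scan 1 for 26.0% of the mitochondrial list and 25.0% of the proteasome list, against 43.4% of the cytosolic ribosomal genes. That difference between lists was not tested.

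Markers of some cell types differed in median between the labels, though none passed limma's adjusted test, in which the lowest adjusted p among the markers given here was 0.060. With scan as a block 1 macrophage marker passed (limma, adjusted p = 0.035). The 6 macrophage markers had list medians of -2.51 to -2.25 on the arrays labelled KO and -1.48 to -1.26 on those labelled WT, with 5 of 6 negative and Cx3cr1 at a difference of -1.58. For nephron progenitors 5 of 6 were negative, with list medians of 0.14 to 0.92 against 0.83 to 1.55, and all 6 markers of dividing cells were negative, with 0.47 to 1.27 against 1.11 to 1.49. Of the collecting duct markers 4 of 5 were positive, with list medians of 0.36 to 0.97 against -0.15 to 0.07. Without KO replicate 2 these median differences shrank, from -0.71 to -0.45 for macrophages and from -0.64 to -0.39 for nephron progenitors. They shrank from -0.34 to -0.16 for dividing cells and from 0.33 to 0.12 for the collecting duct. Other list medians, with all arrays and without KO replicate 2, were -0.38 and -0.034 for proximal tubule and -0.34 and 0.062 for podocytes. Those for stroma were -0.25 and 0.061, for endothelium -0.32 and -0.27, and for loop and distal tubule -0.27 and -0.33. In whole tissue, fewer cells of a type and less RNA per cell cannot be told apart, and the part of these markers in the ribosomal protein values was not tested. Markers of proximal tubule, podocytes, loop and distal tubule, collecting duct, stroma and endothelium were all well above background on the arrays of at least 1 group.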

How the data were processed

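Kidney RNA of 6 neonates was measured on single-colour arrays. Per the file headers, the deposited values are linear spot intensities made with Agilent Feature Extraction version 11.0.1.1, background-subtracted and not normalised between arrays, while the submitters' processing notes name version 9.1. From the deposited intensity, control and outlier spots were left out, log2 was taken, each array's 75th percentile was taken off and repeat spots were averaged per probe. Accessions named 27234 of 39429 probes (69.1%) through a RefSeq table of GRCm38.p6; the array design names build mm9, so no probe coordinates are given. A probe was kept where every array of 1 group or both had it well above background, and each gene was read by its brightest kept probe, leaving 21219 genes. The labelled groups were compared by two-sided lmFit and eBayes of limma 3.58.1 (R 4.3.3), with Benjamini-Hochberg adjustment across the 21219 genes; the fit was tested on simulated data. Separate neonates are stated by the design text. The members and lists were chosen with earlier results of these data known. Shown in full were members with the 10 smallest p, the 3 highest and 3 lowest differences, paralogues, and the stalk, 5S particle and ubiquitylated 40S lists, and up to 4 genes of each companion list could be named; other members were named after their values were seen, and a few genes are not reported here. Scan differences and probe spans were described without a test. Normexp used median spot and background signals with an offset of 50. Replicate numbers did not pair the arrays. For arrays of the same number, the deviations of genes from their group means correlated at -0.397, 0.481 and -0.601.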

Additional observations from a re-analysis of the deposited data

How the results depend on the processing

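No ribosomal protein gene passed an adjusted p of 0.05 in any of the 20 fits tried, in which the lowest adjusted p of a member was 0.238. The number lower under the KO label at an unadjusted p under 0.05, 1 in the report, was 4 with quantile normalisation, 4 with normexp and the 75th percentile, 11 with normexp and quantile normalisation, 6 with every probe, and 0 with no filter on dim probes, with the mean of probes, with the replicate block, within scan 1 and against WT replicate 3 alone. The number higher, 0 in the report, was 3 with the scan block, where 10.5% of all genes were higher. With every probe it was 1, where 5.85% of all probes were higher. It was also 1 with a filter on all 6 arrays, and with an intensity trend and robust variance. For the other alternatives, those without 1 array included, the share of all genes was not counted. Their numbers are therefore not read as a trait of the members. Leaving out 1 array at a time gave 0 to 2 higher and 0 to 1 lower, and medians of 0.0090 to 0.22 for the 40S and 0.013 to 0.18 for the 60S genes, lowest without KO replicate 2. The medians turned negative with quantile normalisation (-0.074 and -0.095) and with normexp and quantile normalisation (-0.085 and -0.087). Companion genes called, cell type markers not counted, numbered 0, and 2 with the scan block. With the replicate block 0 members passed, and the numbers do not pair the arrays.

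Of all 83 members, 30 kept their sign in every alternative, and the share of all genes that did was not counted. Among the members shown in full, signs turned as follows. With quantile normalisation, normexp and the 75th percentile, and normexp and quantile normalisation, Rpl12 was -0.12, -0.00030 and -0.12, Rpl5 -0.11, -0.033 and -0.11, and Rplp0 -0.25, -0.051 and -0.31. Rplp2 was -0.044 with quantile normalisation and -0.046 after normexp. Rpl12 was -0.059 with the mean of probes. Within scan 2, Rpl12 was -0.00040, Rpl5 -0.011 and Rplp0 -0.020. Against WT replicate 3 alone, Rpl22l1 was 0.10, Rpl36al -0.11, Rpl5 -0.084, Rplp0 -0.031 and Rps4l 0.24. Leaving out 1 array, Rpl22l1 ranged from -0.30 to 0.0068, Rpl36al from -0.31 to 0.62, Rpl5 from -0.072 to 0.15, Rplp0 from -0.029 to 0.12 and Rps4l from -0.36 to 0.070. The causes were not tested. The 3 arrays per group, unexplained scan differences and probes that disagree limit every value, and signal over background does not, since all tested members were well above it.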
